A study of Mus musculus with 4 samples.

Results

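Within protein-coding genes, 1863 regions carried intermediate to high CG methylation in control cortex and higher CG methylation in mice lacking NSD1 in excitatory neurons. They were chosen by a rule from the authors' deposited table of 101350 differentially methylated regions. A region had to be a CG region on an autosome that was higher in the conditional knockout, to have a control mean of 35% or more, and to share at least 1 bp with the body of a protein-coding RefSeq gene. The 1863 regions are 72.0% of the 2588 autosomal CG regions higher in the knockout. They are 78.7% of the 2367 such regions inside protein-coding genes, and the other 504 genic gains started from control levels under 35%. Of all deposited regions, 46832 are CG regions that lie on autosomes, of which 5.53% were higher in the knockout, and inside protein-coding genes this share was 14.7%.

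The methylation was read by whole-genome bisulfite sequencing of DNA extracted from somatosensory cortex at an age of 2.5 months. The 2 libraries of the knockout carry the genotype Nsd1Nex-cKO, called cKO here, and the 2 libraries of the control carry Nsd1fl/+, a floxed allele over a wild-type one, so controls also hold 1 floxed copy. Nex (Neurod6) is a gene of excitatory cortical neurons and gives the driver its name, whereas the dissected tissue also holds interneurons, glia and vessels. A change in the level of every cell and a change in the share of cells with a given level cannot be told apart in such tissue. The authors' table gives 1 mean per group and no library values or coverage, so depth is unknown, no spread between libraries stands beside any value, and no test over mice was possible. The labels do not say whether the libraries come from separate animals.

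NSD1 is an enzyme of chromatin that methylates histone H3 at lysine 36, mainly to the dimethyl state. SETD2 makes the trimethyl state of the same lysine along the bodies of transcribed genes, and the DNA methyltransferases DNMT3A and DNMT3B hold a PWWP domain that binds methylated lysine 36. Bodies of transcribed genes are usually highly methylated at CG sites, and intermediate levels are known from enhancers, from mixed cell populations and from imprinted loci. Nsd1 itself (chromosome 13, 55209782 to 55318325) held 0 of the 1863 regions, 1 CG region lower in cKO and 5 CHH regions higher in cKO. Deletion of the gene could not be checked from these group means. Of Dnmt3a, Setd2, Nsd2 and Nsd3, none held a region of the set, which 6.13% of all autosomal protein-coding genes carried. Nsd3 held 1 CG gain from a control level under 35% and 1 CHH region higher in cKO.

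The sequence of a few regions can be shown where they reach into the RefSeq window from 250 bases before to 50 bases after an annotated transcription start (GRCm38.p6, the assembly of mm10). Such overlaps were rare, with 6 of 1863 regions (0.322%), against 9.33% of the 504 genic gains from lower control levels. The rule divides these gains by control level, so this contrast is not independent of it. The stretches below are the parts of 4 regions that lie upstream of a start, and they differ in length and in number of CpGs. They are read 5′ to 3′ on the strand of the named start, with each CpG in capitals. The first belongs to the region with the largest area statistic, the second to a glycine transporter, and the last ones to starts of other transcripts inside larger neuronal or lipid-binding protein genes.

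Tmem267 (chr13:119488223-119488472, plus strand, 39 CpGs): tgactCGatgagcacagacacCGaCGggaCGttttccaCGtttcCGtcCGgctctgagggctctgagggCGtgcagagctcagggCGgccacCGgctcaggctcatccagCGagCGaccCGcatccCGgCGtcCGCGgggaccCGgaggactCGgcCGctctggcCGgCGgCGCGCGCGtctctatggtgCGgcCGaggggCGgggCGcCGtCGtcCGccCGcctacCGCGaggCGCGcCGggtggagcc
Slc6a9 (chr4:117855364-117855497, plus strand, 7 CpGs): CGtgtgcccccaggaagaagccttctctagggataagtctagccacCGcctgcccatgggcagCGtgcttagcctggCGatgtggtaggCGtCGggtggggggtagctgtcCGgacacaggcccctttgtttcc
Gm26962 within Osbpl10 (chr9:115200356-115200454, minus strand, 5 CpGs): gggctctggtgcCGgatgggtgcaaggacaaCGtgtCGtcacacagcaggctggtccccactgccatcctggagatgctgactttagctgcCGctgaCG
Gm14329 within Grin2b (chr6:135732620-135732651, plus strand, 3 CpGs): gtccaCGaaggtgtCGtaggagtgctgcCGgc

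The Tmem267 region (chromosome 13, 119488103 to 119488592) had 75.9% CG methylation in cKO and 57.4% in control, over 143 cytosines. Its printed stretch is a CpG-rich start, and 229 of the 20085 windows at starts of protein-coding genes hold at least as many CpGs as its window of 50. The Slc6a9 region had 82.9% in cKO and 61.2% in control over 15 cytosines, and this gene encodes the glycine transporter GlyT1. The region in Osbpl10, an oxysterol-binding protein gene, had 83.7% in cKO and 59.5% in control. The region in Grin2b, which encodes the GluN2B subunit of NMDA receptors, had 94.0% in cKO and 79.2% in control. The printed stretch of Tmem267 held 39 CpGs in 250 bp and that of Slc6a9 7 in 134 bp. Those of Gm26962 and Gm14329 held 5 in 99 bp and 3 in 32 bp. Only 1 region overlapped a microRNA hairpin, Mir7658 inside Klhl17 (chromosome 4, 156230059 to 156230115, minus strand), at 78.0% in cKO and 55.5% in control.

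Mir7658 hairpin, 3 CpGs in capitals: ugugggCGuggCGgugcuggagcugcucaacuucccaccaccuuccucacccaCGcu

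Most regions reached high methylation in cKO. The median level was 81.3% in cKO (quartiles 74.0% and 87.6%, range 52.0% to 97.8%) and 55.5% in control (quartiles 47.2% and 64.2%, range 35.05% to 88.5%). A level of 80% or more was found in 1020 regions (54.8%) in cKO and in 25 regions (1.34%) in control. The median difference was 24.4 points, with quartiles of 21.1 and 27.8 points. Differences of 30 points or more occurred in 265 regions and of 40 points or more in 15, and 46 regions differed by less than 15 points. Because both group means entered the rule, these values describe the set and support nothing about it.

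The gap between cKO and control narrowed as the control level increased. Room for a gain shrinks as the control level nears full methylation, so the size of the gap is bounded in advance. Regions with control levels of 35% to 45% (n = 377) had a median of 68.3% in cKO and a median difference of 27.5 points. Those at 55% to 65% in control (n = 533) had 84.2% in cKO and a difference of 24.05 points. Those at 75% or more in control (n = 83) had 94.0% in cKO and a difference of 15.3 points. At the limit of the rule nothing jumped. The 26 regions with control levels from 35% to 36% had a median of 62.2% in cKO, and the 30 genic gains just outside, from 34% to 35%, had 62.0%.

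**Figure D1:**
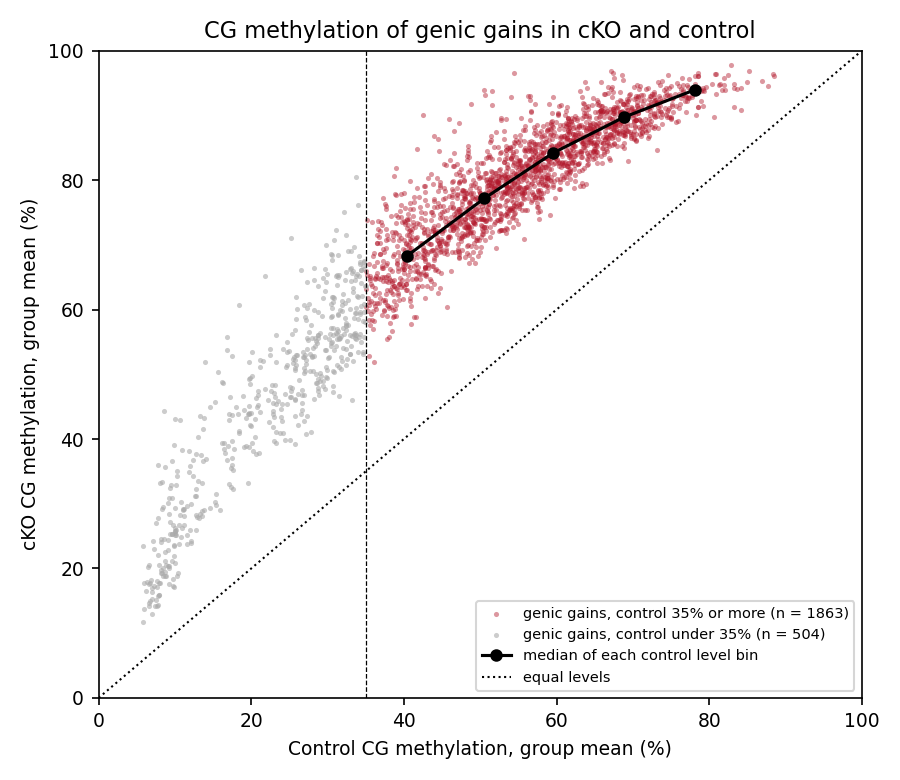
Mean CG methylation in control (x axis, %) and in cKO (y axis, %) for each of the 1863 genic gains from control levels of 35% or more (red) and the 504 from lower levels (grey); each point is 1 region, black points are medians of 5 bins of control level, and the dotted line marks equal levels. The medians run from 68.3% in cKO in the lowest bin to 94.0% in the highest and approach the dotted line.

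The regions were short. Their median length was 98 bp (range 51 to 650 bp) with a median of 11 CG cytosines (range 4 to 143), and together they covered 218 kb and 23539 CG cytosines. The deposited number of cytosines counts both strands. In 194 of 203 CG regions that lie wholly inside a promoter window (95.6%) it equalled the CG cytosines of both strands, and in 4 those of 1 strand. A region of 11 cytosines thus holds about 5 or 6 CpGs. The median density was 10.4 CG cytosines per 100 bp (quartiles 8.08 and 13.3). Genic gains from lower control levels had 14.3 (quartiles 9.74 and 22.6), gains outside protein-coding genes 11, and the 13731 genic CG losses 7.55 (quartiles 5.50 and 10). In density the set lay between the CpG-dense gains from lower levels and the sparser losses, with overlapping quartile ranges and no test. The control limit of the rule divides the genic gains, so their contrast in density is not independent of it.

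Among the regions with the largest area statistic, the authors' signed score summed over the cytosines of a region, most lay near the 3′ end of their gene. After Tmem267, the largest was in Dact3, an antagonist of Wnt signalling, 89.8% of the way along the gene, with 69.7% in cKO and 50.1% in control over 134 cytosines. Cracd, a regulator of actin capping, held 75.3% in cKO and 45.2% in control (chromosome 5, 76857828 to 76858203) at 92.8% of its length. Cacng7, an auxiliary subunit of AMPA receptors, held 75.6% in cKO and 40.2% in control (chromosome 7, 3366696 to 3366942), at 96.1% of its length. In these 3 genes the named region lay in the last stretch before the gene end, and in Dact3 and Cacng7 it was the only CG gain. The Cracd region lay 17.2 kb from the nearest annotated start of its gene.

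The next genes in that order followed the same placement with 1 exception. Lmna, which encodes nuclear lamins A and C, had 69.2% in cKO and 43.8% in control over 593 bp (chromosome 3, 88484562 to 88485154). This region lay at 87.1% of the gene and 8.16 kb from its nearest annotated start. Klhl26, a Kelch-like gene, had 82.7% in cKO and 60.2% in control at 93.2% of the gene. Hcn2, a pacemaker channel, had 72.7% in cKO and 54.4% in control over 80 cytosines at 96.8% of the gene. Crb2, a Crumbs polarity gene, was the exception at 46.1% of its length, with 61.8% in cKO and 40.8% in control.

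The largest differences over at least 10 cytosines were found in genes of different function. Mapk8, the kinase JNK1, had 80.6% in cKO and 38.7% in control (chromosome 14, 33428765 to 33429007), a difference of 41.9 points. Tmem63c, a member of a family of mechanosensitive channels, had 77.9% in cKO and 38.8% in control. Zfp532, a zinc finger gene, had 79.8% in cKO and 40.9% in control. Trmt61a and Gtdc1 led this order, with differences of 47.6 and 42.9 points, and Sdccag8, a centrosomal gene, closed it with 76.0% in cKO and 37.6% in control. The longest region of the set, with 650 bp, lay in Rims4, of the RIM family of the presynaptic active zone, and had 78.0% in cKO and 40.1% in control (chromosome 2, 163911076 to 163911725). Tmem131 (86.9% in cKO, 55.3% in control over 544 bp) and the transcription factor gene Tcf4 (66.6% in cKO, 39.9% in control over 539 bp) followed, after the 593 bp region of Lmna.

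At the ends of the control range the differences were of unequal size. The highest control levels over at least 10 cytosines were in Mboat1, a lysophospholipid acyltransferase (96.3% in cKO, 88.3% in control), and P2ry14, a receptor for UDP-sugars (94.5% in cKO, 87.8% in control). Tnik, a kinase (95.3% in cKO, 86.9% in control), and Psd3, an exchange factor for ARF6 (96.8% in cKO, 85.2% in control), followed. Among the lowest were those in Setbp1 (66.0% in cKO, 35.05% in control), Pfkp, a phosphofructokinase (61.9% in cKO, 35.4% in control), and Rap1gap, a GTPase activator (52.8% in cKO, 35.4% in control). The differences were 6.76 to 11.6 points in the genes with the highest control levels and 17.4 to 31.0 points in those named with the lowest. The highest control levels also leave the least room for a gain.

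Gains of this kind were rare at gene starts and became more frequent toward gene ends. A transcription start and a strand were at hand for 1459 of the 1863 regions. Of these, 23 (1.58%) lay within 2 kb of a start of their gene. The share was 23.8% for the 382 placed gains from lower control levels and 11.2% for the 10737 placed genic losses. The control limit of the rule itself divides the set from the gains from lower control levels. Their contrast at starts is thus not independent of the rule and was not tested. The median distance to the nearest start was 39.2 kb (quartiles 15.5 and 88.4 kb), and 995 regions (68.2%) lay more than 20 kb away. Cut into 4 equal parts from start to end, gene bodies held 217, 307, 382 and 553 regions. The last of these is 37.9% of the placed regions. Cut into 10 equal parts, the first held 5.55% and the last 17.8%.

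The placement differed from that of the other genic CG regions, as a description without a test. Losses ran the opposite way, with 29.8% in the first and 21.0% in the last of the 4 parts. Gains from lower control levels were frequent at both ends, with 34.8% in the first and 32.2% in the last part. The slope of the set was seen in genes of either size class. In genes up to 100 kb, 67.1% of 712 placed regions lay beyond the midpoint, and in genes over 100 kb 61.2% of 747 did. Levels differed little along the gene, and no relation with position was tested, with medians of 82.4% in cKO and 54.9% in control in the first part and of 81.7% in cKO and 56.8% in control in the last. The median difference was 24.7 points in the first part and 23.6 points in the last.

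**Figure D2:**
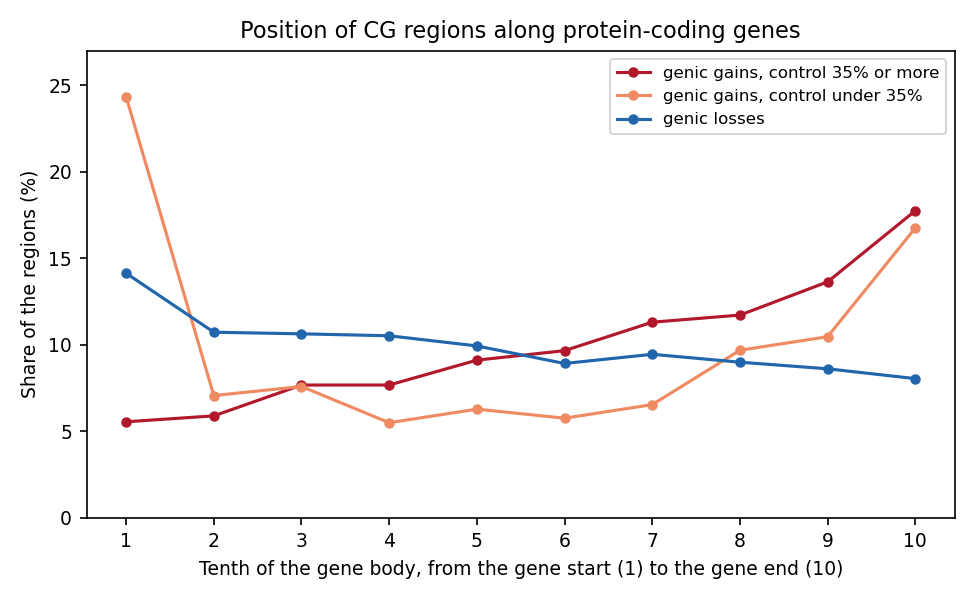
Share of regions (y axis, %) in each of 10 equal parts of the protein-coding gene that holds them (x axis, 1 at the start and 10 at the end) for genic gains from 35% or more (red, n = 1459), genic gains from lower levels (orange, n = 382) and genic losses (blue, n = 10737). The red line climbs to 17.8% in the last part, the blue line declines from start to end, and the orange line peaks in the first part at 24.3%.

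The regions within 1 kb of a start were few and are named here after their values were seen. Tmem267 held a pair of them, the second at 90.9% in cKO and 84.2% in control. Dlgap1, a postsynaptic scaffold gene, had 66.7% in cKO and 40.6% in control at 323 bp from a start. Fkbp2, which encodes a peptidyl-prolyl isomerase, had 78.8% in cKO and 47.0% in control, and Pde4b, a cyclic AMP phosphodiesterase, 63.4% in cKO and 44.7% in control. Nnat, an imprinted gene expressed from the paternal allele, had 72.3% in cKO and 52.5% in control over 11 cytosines. Ldhal6b, Slc6a9 and Rap1gap complete these 9 regions.

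Methylation outside CG sites moved the same way around these regions more often than the opposite way. The CHH context, where H is A, C or T, is methylated in neurons mainly by DNMT3A. A CHH region higher in cKO lay within 5 kb of 225 of the 1863 regions (12.1%) and a CHH region lower in cKO within 5 kb of 24 (1.29%). Among genic CG losses the shares were 1.73% for CHH gains and 38.9% for CHH losses, and among gains from lower control levels 6.15% and 3.37%. Gains outside protein-coding genes stood apart, with 5.88% near a CHH gain and 14.9% near a CHH loss. Direct overlap was rare, with 7 regions on a CHH gain and 0 on a CHH loss. Both contexts come from the same libraries, so they are not independent measurements.

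**Figure D3:**
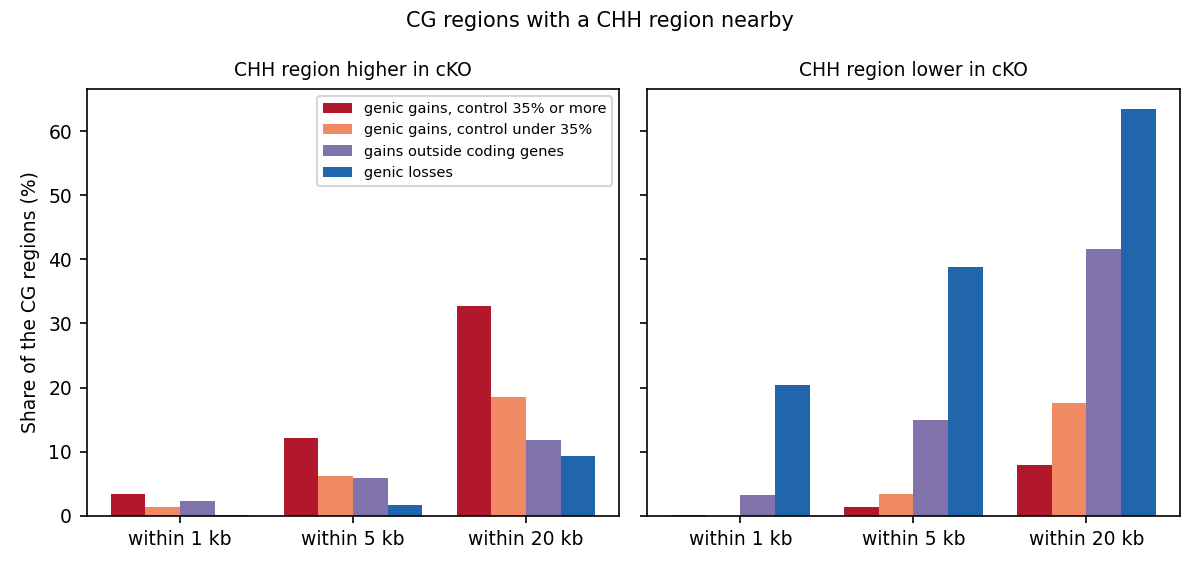
Share of CG regions (y axis, %) with a CHH region higher (left) or lower (right) in cKO within 1, 5 or 20 kb, for the 4 kinds of CG region named in the legend. Red bars, the 1863 genic gains from 35% or more, reach 32.8% at 20 kb on the left and 7.94% on the right, while blue bars, the genic losses, reach 9.27% and 63.4%.

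Named pairs show the sizes in both contexts. In Sdccag8, the CG region at 76.0% in cKO and 37.6% in control lay 370 bp from a CHH region of 9.03% in cKO and 1.69% in control over 128 cytosines. In Arhgef10, a guanine nucleotide exchange factor, a CG region of 60.2% in cKO and 36.3% in control neighboured a CHH region of 15.9% in cKO and 3.30% in control. In Slc38a6, a member of an amino acid transporter family, the CG values were 94.5% in cKO and 67.2% in control, and the CHH values 11.2% in cKO and 2.85% in control. In Osbpl3, a relative of Osbpl10, they were 70.1% in cKO and 43.6% in control for CG, and 8.996% in cKO and 1.67% in control for CHH. The direction in both contexts follows from how these pairs were chosen, and only the sizes are given as description. The 242 CHH gains near the set had medians of 6.77% in cKO and 1.59% in control, close to the 6.92% in cKO and 1.71% in control of the other 8185 autosomal CHH gains.

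At the level of genes, 1261 protein-coding genes carried at least 1 region of the set, which is 6.13% of 20560 on autosomes. A CG loss was held by 293 of them (23.2%, against 19.3% of all autosomal protein-coding genes), a CHH gain by 644 (51.1%, against 15.5%) and a CHH loss by 141 (11.2%, against 15.7%). These genes are long, with a median of 82.5 kb against 17.6 kb for all, so genes of like length are the nearer comparison. Between 100 and 300 kb, a CHH gain was carried by 70.9% of 382 genes with a region of the set and by 51.0% of all 1779 protein-coding genes of that length. In the same length class, the shares were 15.2% and 39.6% for a CHH loss and 35.1% and 51.1% for a CG loss. Between 30 and 100 kb they were 43.7% and 27.2% for a CHH gain, 5.54% and 22.0% for a CHH loss, and 11.7% and 27.2% for a CG loss. In both length classes the genes of the set carried CHH gains more often, and losses in either context less often, than all genes of that length, which include them; this was not tested.

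Few regions of the set lay within 5 kb of a CG loss, in the same gene or not. The 293 genes with both a region of the set and a CG loss held 467 regions of the set. The median distance from these to the nearest CG loss was 37.3 kb. Over the whole set that median was 50.1 kb, with the closest CG loss at 279 bp and 33 regions (1.77%) within 5 kb of one. Among gains from lower control levels, 7.34% lay within 5 kb of a CG loss. Both shares run over all regions, also those in genes without a CG loss. Within 20 kb of a CG loss lay 312 regions of the set (16.7%) and 27.8% of the gains from lower control levels, and no distance was tested. Of the 1261 genes, 968 carried no CG loss, and 1020 carried more regions of the set than CG losses.

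Most genes carried a single region, and 350 carried 2 or more. In 911 genes there was 1, in 219 genes 2, in 67 genes 3 and in 33 genes 4, and 31 genes held 5 or more. Neighbouring regions in the same gene were separated by a median of 20.2 kb (quartiles 6.33 and 53.5 kb), and 57 of 617 neighbours were less than 1 kb apart. Of the 31 genes with 5 or more, 25 (80.6%) also carried a CHH gain, 6 (19.4%) a CHH loss and 8 (25.8%) a CG loss. These genes have a median length of 206 kb. Of all protein-coding genes between 100 and 300 kb, 51.0% carried a CHH gain, 39.6% a CHH loss and 51.1% a CG loss, and no difference was tested.

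The 6 genes with the most regions differed in where the regions lay. Klhl29, a Kelch-like gene (chromosome 12, 5077465 to 5375682), held 12, with levels of 63.8% to 89.7% in cKO and 39.9% to 64.3% in control. They lay between 2.99 and 171 kb from the start of the 298 kb gene, 11 of them before its midpoint, and the gene had 9 CHH gains and 0 losses in either context. Celf2, which encodes a regulator of splicing in neurons (chromosome 2, 6539694 to 7396341), held 11, at 73.9% to 90.1% in cKO and 38.9% to 68.3% in control. All 11 lay within the first 406 kb of its 857 kb. Foxp1, a forkhead transcription factor of cortical neurons (chromosome 6, 98925342 to 99522746), held 10, at 74.7% to 91.1% in cKO and 48.7% to 70.3% in control. There 9 of 10 lay between 504 and 583 kb from the start of a 597 kb gene, beyond its 2 CG losses at 425 and 427 kb. These distances run from the outer end of the gene record. The Foxp1 region with the largest area statistic lay 9.72 kb from the nearest annotated start of the gene.

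The other 3 genes held 8 or 9 regions each. Gabbr2, a subunit of GABA-B receptors, held 9 regions at 63.4% to 83.4% in cKO and 43.6% to 59.3% in control, from 62.1 to 323 kb of its 329 kb. Atxn1, the gene of spinocerebellar ataxia type 1, held 9 at 66.3% to 96.1% in cKO and 39.2% to 78.6% in control. Mtcl1, a microtubule crosslinking factor of 113 kb, held 8 at 70.7% to 94.0% in cKO and 48.5% to 74.1% in control, along with 3 gains from lower control levels and 1 CG loss. In each of the 6 genes the lowest difference of a region was between 17.5 and 22.8 points.

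**Figure D4:**
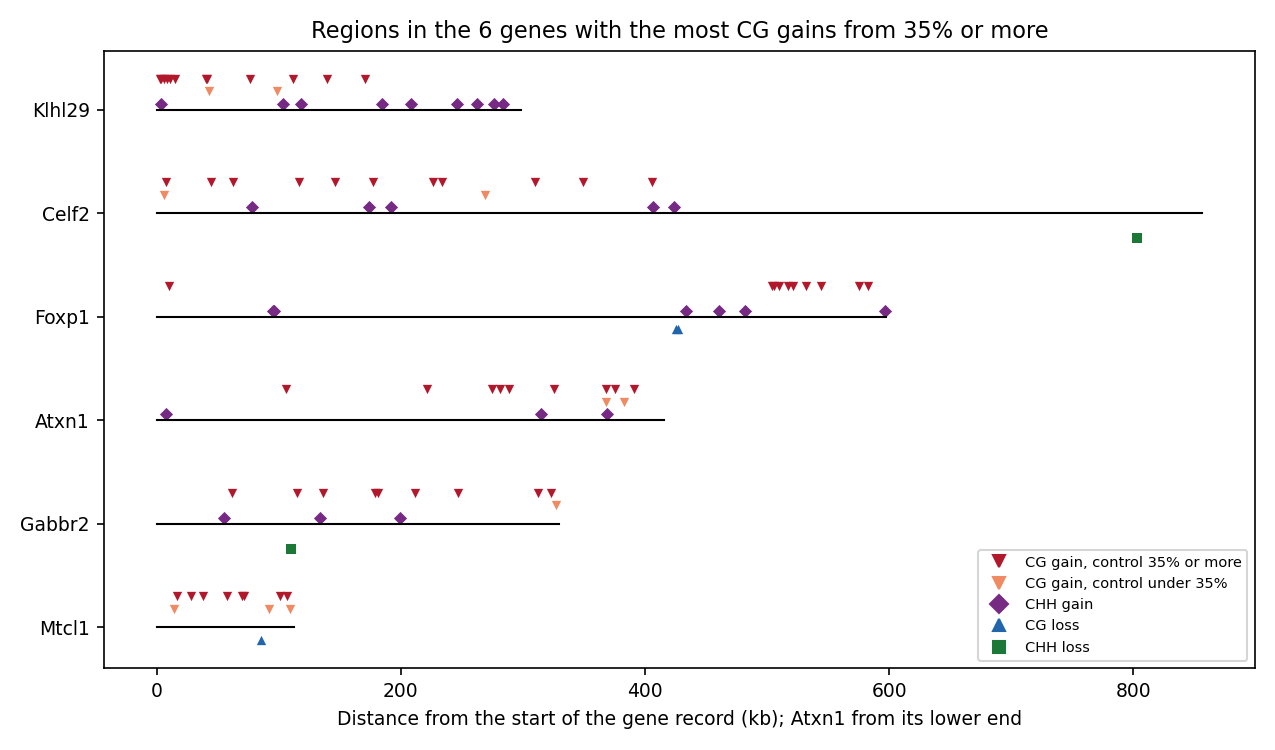
Position of each CG and CHH region along the 6 genes with the most regions of the set (x axis, distance in kb from the start of the gene record, or from the lower coordinate for Atxn1, whose strand was not used); each symbol is 1 region and black lines are gene bodies. Red triangles crowd the first part of Klhl29 and of Celf2 and the last part of Foxp1, and few loss symbols appear.

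Most lists of neuronal function and layer identity held regions in 16.7% to 34.5% of their genes. The activity-regulated and interneuron lists stood lower, at 3.33% and 3.70%. Beside 6.13% of all autosomal protein-coding genes, 0.591% of those up to 10 kb, 3.28% of those between 10 and 30 kb, 10% of those between 30 and 100 kb, 21.5% of those between 100 and 300 kb and 28.0% of those over 300 kb carried a region of the set. The lists therefore have to be read against their gene lengths, and none was tested.

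Of 29 neuronal RNA-binding genes 10 (34.5%, median length 122 kb) carried 28 regions, of which 11 lie in Celf2. With a control limit of 50% in place of 35%, 4 of these genes carried one, against 12 of the voltage-gated channel and 6 of the upper layer genes, so the order of the lists depends on that limit. Srrm4, a splicing activator of microexons, had 64.4% in cKO and 37.7% in control, and Nova2, a neuronal splicing regulator, 60.4% in cKO and 38.3% in control. Rbfox1, another splicing regulator, had 85.7% in cKO and 64.5% in control. In Srrm4 and Nova2 the region lay at 96.5% and 94.1% of the gene.

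Channels, receptors and synaptic proteins followed. Of 43 voltage-gated channel genes 13 (30.2%, median length 147 kb) carried 22 regions. Besides Hcn2, they include Cacna1e, the R-type calcium channel (71.4% in cKO, 38.5% in control), and Scn8a, a sodium channel (84.3% in cKO, 64.4% in control). Of 46 genes of glutamate and GABA receptors and their scaffolds 12 (26.1%, median length 197 kb) carried 31 regions. Shank3, a postsynaptic scaffold, had 63.0% in cKO and 37.8% in control over 64 cytosines, and Dlgap3 73.6% in cKO and 48.0% in control. Dlgap1 had 81.7% in cKO and 57.2% in control at its region with the largest area statistic. Shank3 and Dlgap3 bear these regions at 96.5% and 95.6% of their length.

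Presynaptic release genes carried 13 regions in 10 of 35 listed genes (28.6%, median length 69.0 kb). This list is not complete either, and Rims4, with 2 regions, and Erc2, with 4, lie outside it. Nsf, the ATPase that takes apart SNARE complexes, had 71.5% in cKO and 36.4% in control. Rimbp2, an active-zone protein, had 72.2% in cKO and 36.8% in control, Bsn, the active-zone protein Bassoon, 74.0% in cKO and 57.7% in control, and the synapsin gene Syn3 81.4% in cKO and 55.2% in control. Synaptic adhesion genes carried 18 regions in 11 of 43 (25.6%, median length 297 kb), among them Tenm2 (93.2% in cKO, 69.6% in control over 40 cytosines), Dscam (61.5% in cKO, 37.3% in control), Ptprf (87.1% in cKO, 68.1% in control) and Nrxn2 (64.4% in cKO, 43.6% in control). The adhesion list is the longest in median gene length and held 125 CG losses beside its 18 regions. Of these losses 61 lie in Tenm3, with 3 regions of the set, and 23 in Tenm2.

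Axon guidance genes carried 17 regions in 14 of 53 genes (26.4%, median length 148 kb). Efnb2, the ligand ephrin-B2, had 82.1% in cKO and 60.5% in control over 44 cytosines. The semaphorins Sema6c (66.3% in cKO, 44.2% in control) and Sema4d (91.8% in cKO, 75.1% in control) and Srgap3, which acts downstream of Robo receptors (73.6% in cKO, 47.0% in control), were other members. In this list 31 of 53 genes carried a CG loss and 14 a region of the set. Of all protein-coding genes between 100 and 300 kb, 51.1% carried a CG loss and 21.5% a region of the set. The list was not tested against them.

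Among cortical identity genes the upper layer list held 12 regions in 6 of 20 genes (30%, median length 72.7 kb). Cux1 (89.5% in cKO, 67.0% in control), Rorb, a marker of layer 4 (94.7% in cKO, 73.6% in control), and Epha4 (86.5% in cKO, 61.3% in control) carried some of them. The deep layer list held 19 regions in 4 of 24 genes (16.7%, median length 82.9 kb), and 10 of these were in Foxp1. Sox5 (75.5% in cKO, 47.1% in control) and Tshz2 (77.6% in cKO, 50.03% in control) carried 37 and 26 CG losses beside 4 and 3 regions of the set. Ldb2 had 64.95% in cKO and 35.5% in control at its region with the largest area statistic.

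Chromatin and signalling lists hold shorter genes than most lists above. Of 46 listed enzymes and readers of histone and DNA methylation 4 (8.70%, median length 64.1 kb) carried 9 regions. The list is not complete. Outside it, Setd7 and Jmjd1c carried 2 regions each and Kmt5b and Kdm3b 1 each. Brpf3, a scaffold of histone acetyltransferase complexes, held 5 of the 9 regions of the list in its 37.7 kb. The Brpf3 region with the largest area statistic had 84.7% in cKO and 53.4% in control. Mbd2, a reader of methylated CpGs, had 91.7% in cKO and 63.6% in control, the histone methyltransferase Kmt2a 64.9% in cKO and 36.3% in control, and the demethylase Kdm4b 69.0% in cKO and 42.8% in control. Of 56 Notch and Wnt pathway genes 6 (10.7%, median length 29.4 kb) carried 8 regions. The share of the listed enzymes and readers is below the 10% of all genes between 30 and 100 kb, but it rests on 4 genes of an incomplete list. The median length of the pathway genes lies just under 30 kb, at the edge between 2 length classes. Their share is above the 3.28% of genes between 10 and 30 kb and close to the 10% of the next class. The pathway genes with a region include Dtx1 (67.1% in cKO, 41.6% in control) and the Wnt coreceptor Lrp6 (66.5% in cKO, 39.2% in control). The Notch coactivator Maml1 had 82.2% in cKO and 55.8% in control.

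**Figure D5:**
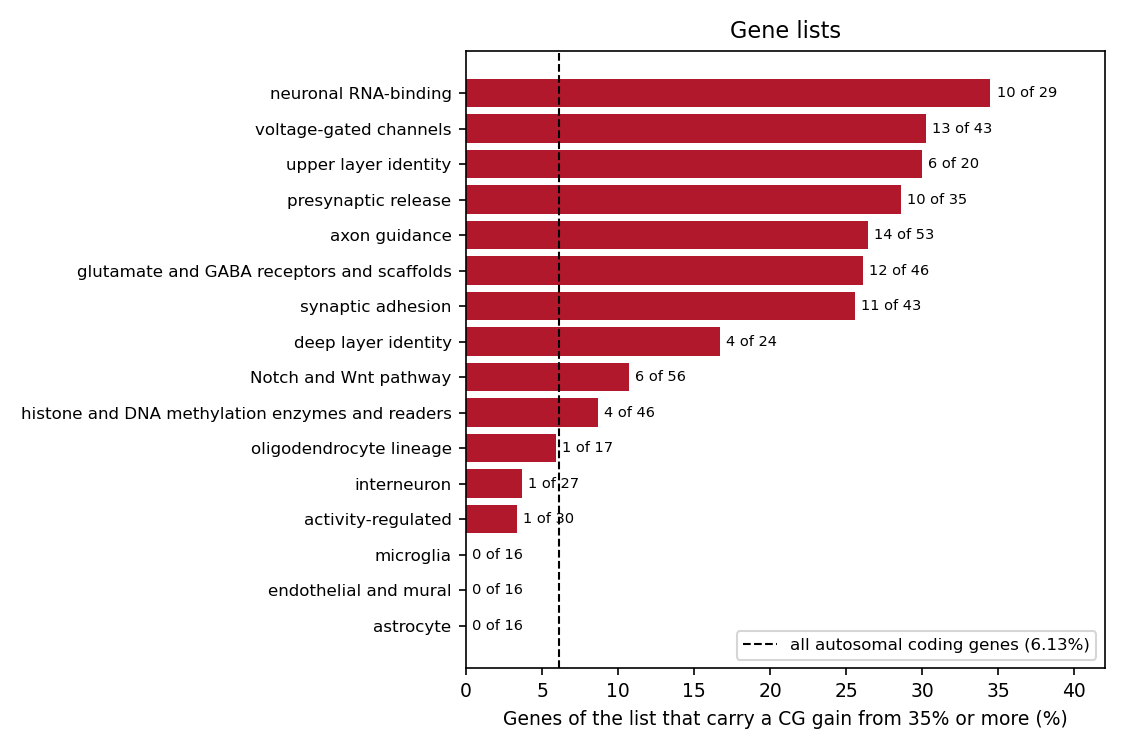
Share of the genes of each list that carry a genic CG gain from 35% or more (x axis, %), with the number of genes beside each bar; the dashed line is the share over all autosomal protein-coding genes, 6.13%. Most lists of neuronal function and layer identity stand at 16.7% to 34.5%. The activity-regulated and interneuron lists stand at 3.33% and 3.70%, and the glial, microglial and vascular lists at 0 to 1 gene each.

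Activity-regulated genes and markers of other cell types are mostly short and carried few regions in number. Of 30 activity-regulated genes (median 5.48 kb) Nr4a1 alone (3.33%, against 0.591% of all genes up to 10 kb) carried a region, at 64.6% in cKO and 38.7% in control, 85.3% of the way along the gene. Of 27 interneuron genes (median 14.8 kb) Nxph1 alone (3.70%, against 3.28% of all genes between 10 and 30 kb) did (93.6% in cKO, 76.5% in control). These classes follow the median length of each list, and both carriers are longer. Nr4a1 spans 20.9 kb, in the class at 3.28%, and Nxph1 301 kb, in the class over 300 kb at 28.0%. Of 64 markers of astrocytes, the oligodendrocyte lineage, microglia, and endothelial and mural cells, 1 carried a region of the set. This was Mbp, with 2 regions, and 71.4% in cKO and 47.8% in control at that with the larger area statistic. A CG loss was carried by 30 and a CHH loss by 34 of the same 64 markers, where 15.5% and 13.6% of all genes between 10 and 30 kb carried one. The endothelial and mural list is longer, with a median of 41.6 kb, and 9 and 11 of its 16 genes carried these losses. Of all genes between 30 and 100 kb, 27.2% carried a CG loss and 22.0% a CHH loss, and no difference was tested. The median length of the 64 markers is 17.8 kb, and 3.28% of all protein-coding genes between 10 and 30 kb carried a region of the set.

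The regions were spread over all 19 autosomes. Per Mb of protein-coding gene body, chromosome 12 had the most, with 2.38 (99 regions), and chromosome 7 the fewest, with 1.49 (87 regions).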

How the data were processed

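Per the labels' protocols, DNA was extracted with CTAB, sheared, bisulfite-treated and amplified. CASAVA, Bowtie2 and mm10 are named in the submitters' processing notes. The region caller, its thresholds and the bisulfite conversion rate were not given in the sources used here. The authors deposited, per region, the mean methylation fraction of each group (printed as a percent), their difference, an area statistic (a score with no fixed range), the number of cytosines and the length. The deposited difference equalled cKO minus control within 1e-09 in all 101350 regions, and 0 regions were repeated. Depth is unknown.

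RefSeq genes (GRCm38.p6) starting beyond the first 3 Mb of an autosome were used, 20560 of them protein-coding, and 16457 of these had a RefSeq start window with strand. Without one, no start distance or position is given. A region was assigned to the shortest overlapping gene, named before predicted models, and gene counts used every overlapping gene. Exons were not analysed here. Overlaps and distances were computed with Python 3.11.15 and pandas 2.3.3, and were tested on simulated data.

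The members, the 16 gene lists and the naming rule were chosen with earlier results of these data known. The rule took, by area statistic, 8 members and 4 per list, and by difference (6), cytosines (4), length (4), number of members (6), control level (4 at each end) and area statistic of a nearby CHH gain (4). Where it says CpGs, CG cytosines were counted. No test was run, since group means allow none. Some genes that this rule names are not reported here.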

Additional observations from a re-analysis of the deposited data

How the results depend on the processing

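No paired analysis was possible because the deposited table holds 1 mean per group and no library values, so leaving out a library was not run either. Exon overlap, planned at the start, was not analysed here. Values were held against a 95% binomial interval (of the share, or of the median by rank), and counts against a factor of 1.5. Of 32 alternative values of main results, 17 stayed within these bounds.

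The number of regions ranged from 1248 to 2003 with control limits of 50% and 30%. It was 1111 with at least 10 cytosines and 836 with a difference of at least 25 points. The median difference of 24.4 points became 24.05 and 22.9 points with control limits of 40% and 50%, 23.6 with at least 10 cytosines and 28.2 among differences of at least 25 points. The median density of 10.4 became 12 with at least 10 cytosines and 10.9 with 1 region per gene. The share near a start was 0.617% within 1 kb and 6.92% within 5 kb. The share with a CHH gain was 0.376% for overlap, 3.33% within 1 kb, 32.8% within 20 kb and 56.8% in the same gene, which follows from the windows. The share of genes with a CG loss was 2.38% when the loss had to lie within 5 kb of a region. Listed genes with a region numbered 91, and 62 with a control limit of 50%. With that limit neuronal RNA-binding genes numbered 4 in place of 10, presynaptic release genes 5 in place of 10, axon guidance genes 9 in place of 14, methylation enzymes and readers 2 in place of 4 and activity-regulated genes 0 in place of 1. With at least 10 cytosines axon guidance genes numbered 8, and Notch and Wnt genes 3 in place of 6. No direction reversed, since the rule fixes it.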
